A study of Mus musculus with 6 samples.

Results

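The scaffold genes of the postsynaptic density were examined in hippocampal RNA of mice treated with methamphetamine (MA) and of control mice. The 9 members, Dlg1, Dlg2, Dlg3, Dlg4, Shank1, Shank2, Shank3, Dlgap1 and Homer2, were found by gene symbol, each on 1 row, among the 16060 rows of the deposited expression table. The rule uses gene symbols only and no measured value, although the members were chosen with earlier results of these data known. None of the 9 passed the test between the groups after adjustment. Shank1 and Shank3 lay higher in all 3 MA libraries than in all 3 control libraries, although by a very small margin, while Dlg4, the most abundant member, was nearly level. Some shares of a gene in its family total were also separated between the groups, each with an exact permutation p-value of 0.1, the smallest possible here. Shank1 made up more and Shank2 less of the summed Shank level in each MA library, and Homer2 made up more of the Homer total, of which Homer1 made up less.

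The postsynaptic density is the protein layer under the membrane of an excitatory synapse, where glutamate receptors are held opposite the release sites. Its scaffolds are stacked. The Dlg proteins are membrane-associated guanylate kinases (MAGUKs) that bind receptor tails at the membrane through their PDZ domains, the Dlgap proteins attach to the guanylate kinase-like domain of the Dlg proteins, the Shank proteins bind the end of Dlgap, and the Homer proteins link Shank to metabotropic glutamate receptors and to calcium channels of the endoplasmic reticulum. In the hippocampus these proteins set how many receptors a spine holds and take part in synaptic plasticity, and mutations in several of their genes are known in autism and intellectual disability.

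The control group was 3 adult male C57BL/6 mice that received saline, and the MA group was 3 adult male C57BL/6 mice that received escalating MA doses by intraperitoneal injection over several weeks. According to the methods of the study, behavioral tests of anxiety came before tissue was taken. Each library is labelled as the hippocampus of 1 mouse. In such bulk tissue, fewer cells of a type and less RNA per cell cannot be told apart.

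Depth is unknown, as the table holds log2 values without read totals, and all libraries share nearly the same distribution of values. All 8 markers of excitatory pyramidal and granule neurons were measured, with Slc17a7, the vesicular glutamate transporter of these neurons, the highest. The library labelled MA replicate 3 stood apart, with a mean Pearson correlation to its own group of 0.978 across the tested genes, against 0.984 to 0.993 for the other 5. All 8 markers of the choroid plexus, the epithelium that makes cerebrospinal fluid, lay higher in every MA library than in every control library. That held for 7.32% of all tested genes. The summed linear level of the 8 markers ranged from 99.4 to 476 in control libraries and from 1925 to 5299 in MA libraries. Of these 8, Enpp2, Aqp1, Clic6, Kl and Folr1 rose (limma adjusted p under the 0.05 threshold). The most abundant, Ttr, which codes for the thyroxine carrier transthyretin, did not pass it. The 5 red blood cell genes also lay higher in every MA library, with a summed level of 1599 to 2024 against 3319 to 4378, and Hba-a1, Hba-a2 and Hbb-bs rose. These 8 calls ended without Control replicate 2, without Control replicate 3 or without MA replicate 2, as each of those fits called 0 of the 13321 genes at the adjusted threshold, with 911, 1011 and 1031 at an unadjusted p-value under 0.05. The part of these choroid plexus and blood cell levels in the values of the scaffold genes was not tested.

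To ask whether MA treatment was accompanied by another level of the scaffolds, the deposited log2 values were compared with limma over all 13321 tested genes, and all 9 members passed the filter on low values. At an adjusted p-value under 0.05, 0 of 9 members were called, where 0.263% of all tested genes were (0.165% as higher and 0.0976% as lower). At an unadjusted p-value under 0.05, 2 of 9 were called, Shank1 and Shank3, both higher in MA, where 10.4% of all tested genes were called in either direction, 4.99% as higher and 5.46% as lower. The groups did not overlap in the same 2 members, where 7.32% of all tested genes lay entirely higher in MA, and in no member did the MA libraries lie entirely lower, where 10.2% of all tested genes did. The median log2 difference over the 9 members was 0.06, against -0.01 over all tested genes. With 3 libraries a group, the smallest p-value of a two-sided exact permutation test is 0.1, and Shank1 and Shank3 reached it. Without MA replicate 3, Shank1, Shank2, Shank3, Dlg2 and Dlg3, or 5 of 9 members, passed the unadjusted threshold and 0 the adjusted one, while the share of all tested genes passing the unadjusted threshold became 23.3%. Leaving out MA replicate 1, MA replicate 2 or Control replicate 1 left 0 of 9 past the unadjusted threshold, where 8.69%, 7.74% and 6.22% of all tested genes passed. Sample quality weights, which gave MA replicate 3 a weight of 0.194, put Shank1 and Shank3 past the adjusted threshold, where 4.4% of all tested genes were, and the same 5 members past the unadjusted one, where 26.3% were.

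**Figure D1:**
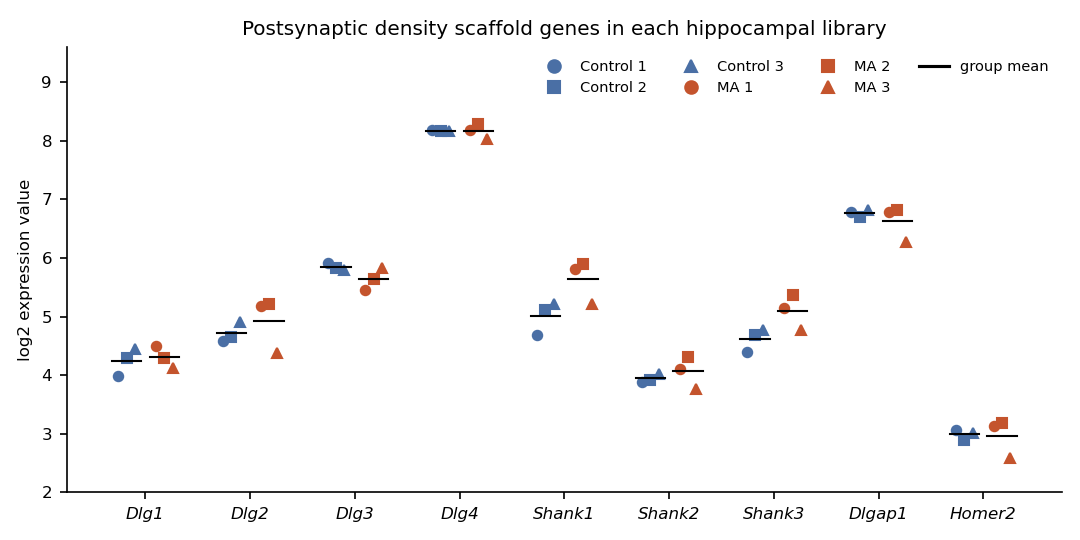
Log2 expression value (vertical axis) of the 9 scaffold genes in each of the 6 hippocampal libraries, with control libraries in blue, MA libraries in orange, a symbol per replicate number and a black line at each group mean. Dlg4 sits near 8.2 in every library, and the lowest MA value of Shank1, 5.210, is just above the highest control value, 5.207.

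The deposited values are per gene length, so levels can be set side by side between genes, although the exonic length that the authors used is not given. On the linear scale, back-transformed from the log2 values, Dlg4 stood first at 286 ± 16.3 (SD over 6 libraries), above 97.8% of the tested genes. Dlgap1 followed at 104 ± 13.9, then Dlg3 at 52.8 ± 6.02 and Shank1 at 40.7 ± 13.2. Below them came Shank3 at 28.6 ± 7.29, Dlg2 at 27.9 ± 6.71, Dlg1 at 18.5 ± 2.55, Shank2 at 15.2 ± 2.22 and Homer2 at 6.95 ± 1.10. Most neighbours in this order kept it in all 6 libraries. Dlg1 was above Shank2 in 5 libraries. Dlg3 was above Shank1 in 4 and Shank3 above Dlg2 in 3, and in both of these pairs the neighbours did not differ beyond their spread. Dlg3 was above Shank1 in every control library and below it in MA replicates 1 and 2.

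Among the Dlg MAGUKs, Dlg4 codes for PSD-95, the major scaffold of mature excitatory synapses. In the mouse genome build GRCm38, used for all positions of genes given here, Dlg4 occupies bases 70016942 to 70047522 of chromosome 11 (plus strand). Dlg4 had log2 values of 8.18, 8.16 and 8.16 in Control replicates 1, 2 and 3 and 8.18, 8.28 and 8.02 in MA replicates 1, 2 and 3. The MA libraries lay on both sides of the control libraries. The difference, MA minus Control, was -0.005 on the log2 scale, with a 95% interval from -0.20 to 0.19 (limma adjusted p = 0.993). Control replicates 2 and 3 carry the same deposited value of Dlg4 to every digit given, so the control spread of this gene rests on 2 distinct values.

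Dlg3 codes for SAP102, a MAGUK known for its part in immature synapses, and lies on the X chromosome from 100767722 to 100818410. Values of Dlg3 were 5.91, 5.83 and 5.79 in Control replicates 1 to 3 and 5.45, 5.64 and 5.82 in MA replicates 1 to 3. Both MA replicates 1 and 2 lay below every control library, and MA replicate 3 lay within their range. The difference was -0.21 (standard error 0.11, limma adjusted p = 0.568), the lowest of the 9 members. It was -0.30 without MA replicate 3 and -0.11 without MA replicate 1 (limma adjusted p = 0.101 and 0.790).

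Dlg2, which codes for PSD-93, spans 1973 kb of chromosome 7 from 90476672 to 92449247. On the log2 scale it stood at 4.58, 4.64 and 4.91 in Control replicates 1 to 3 and 5.18, 5.21 and 4.39 in MA replicates 1 to 3. MA replicates 1 and 2 were above every control library and MA replicate 3 was below every one of them. The difference was 0.21 (standard error 0.22, limma adjusted p = 0.803) with all libraries. It was 0.48 without MA replicate 3, 0.09 without MA replicate 1 and 0.07 without MA replicate 2 (limma adjusted p = 0.0769, 0.940 and 0.967). Dlg1, which codes for SAP97, a MAGUK that binds AMPA receptor tails, ranged from 3.99 to 4.45 in control libraries and from 4.12 to 4.49 in MA libraries, and its groups overlapped almost entirely (difference 0.06, 95% interval -0.28 to 0.41). It turned to -0.06 without Control replicate 1 and to -0.03 without MA replicate 1.

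The Shank genes code for the large scaffolds of the deeper layer of the density. Shank1, which promotes the growth of spine heads, lies on chromosome 7 from 44310253 to 44360572 on the plus strand. For Shank1 the log2 values were 4.69, 5.12 and 5.207 in Control replicates 1 to 3 and 5.82, 5.89 and 5.210 in MA replicates 1 to 3. MA replicates 1 and 2 stood clear of the control libraries, and MA replicate 3 exceeded Control replicate 3 by only 0.0024. The difference was 0.63, or 1.55-fold on the scale of the value plus 1, with a standard error of 0.21 and a 95% interval from 0.15 to 1.12 (limma adjusted p = 0.360).

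Shank3, whose loss causes Phelan-McDermid syndrome in people, lies on chromosome 15 from 89499623 to 89560261 on the plus strand. In Shank3 the log2 values were 4.39, 4.69 and 4.767 in Control replicates 1 to 3 and 5.14, 5.36 and 4.771 in MA replicates 1 to 3. The order of the libraries was the same as for Shank1, with Control replicate 1 lowest, MA replicate 2 highest, and MA replicate 3 only 0.0040 above Control replicate 3. The difference was 0.47 (standard error 0.17, 95% interval 0.08 to 0.87, limma adjusted p = 0.401). Without MA replicate 3 the differences were 0.85 for Shank1 and 0.64 for Shank3 (limma adjusted p = 0.0507 and 0.0662), and without Control replicate 1 they were 0.48 and 0.36 (adjusted p = 0.797 and 0.843). Both lay past the adjusted threshold with sample quality weights (adjusted p = 0.0307 and 0.0354), and a block for the replicate number gave adjusted p-values of 0.742 and 0.770. Exons of an annotated gene on the other strand cover 3.22% of the exonic length of Shank1 and 2.95% of that of Shank3, and whether reads were counted by strand is not given in the sources used here.

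The RefSeq promoter window of Shank3 is shown because this gene was 1 of the 2 members whose groups did not overlap and Shank1 has no window in the sequences used here. Its 250 bases before the transcription start (build GRCm38.p6, chr15:89499358-89499607, plus strand) read, with matches to the EGR motifs in capitals,
Shank3: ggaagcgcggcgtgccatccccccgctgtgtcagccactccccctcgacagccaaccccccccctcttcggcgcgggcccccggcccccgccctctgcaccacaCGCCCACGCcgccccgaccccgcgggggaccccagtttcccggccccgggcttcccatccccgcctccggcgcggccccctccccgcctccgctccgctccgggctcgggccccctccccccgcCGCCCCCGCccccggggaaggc
The windows were searched on both strands for EGR motifs, the binding letters of Egr transcription factors, spelled GCGTGGGCG and GCGGGGGCG. The window held a match to GCGTGGGCG beginning 146 bases and a match to GCGGGGGCG beginning 22 bases before the start, both on the minus strand. Of all 32851 such windows, 0.536% held the former and 2.57% the latter, and no window of the other 6 members with one held either. Its GC content of 82.4% was above that of 99.4% of all windows. A match is a description of the letters, not a bound site.

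Shank2, the third gene of the family, lies on chromosome 7 from 144001928 to 144424494 and is needed for normal NMDA receptor signalling. It had log2 values of 3.89, 3.93 and 4.03 in Control replicates 1 to 3 and 4.11, 4.32 and 3.77 in MA replicates 1 to 3. MA replicates 1 and 2 were the highest of the 6 libraries and MA replicate 3 was the lowest. The difference was 0.12 (standard error 0.14, limma adjusted p = 0.840).

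Dlgap1, also called GKAP or SAPAP1, links PSD-95 to Shank and lies on chromosome 17 from 69969073 to 70821413. Its log2 values were 6.79, 6.70 and 6.82 in Control replicates 1 to 3 and 6.79, 6.82 and 6.27 in MA replicates 1 to 3. It was level in 5 libraries, and MA replicate 3 alone was low. The difference was -0.14 (95% interval -0.49 to 0.21, limma adjusted p = 0.805) and became 0.04 without MA replicate 3. Homer2, an adaptor that joins Shank to metabotropic glutamate receptors, lies on chromosome 7 from 81600481 to 81707527 on the minus strand. Its log2 values were 3.06, 2.90 and 3.01 in Control replicates 1 to 3 and 3.14, 3.18 and 2.59 in MA replicates 1 to 3. As with Dlgap1, MA replicate 3 was the lowest library, while the other MA libraries were above every control library, and the difference was -0.02 (95% interval -0.41 to 0.37, limma adjusted p = 0.979).

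**Figure D2:**
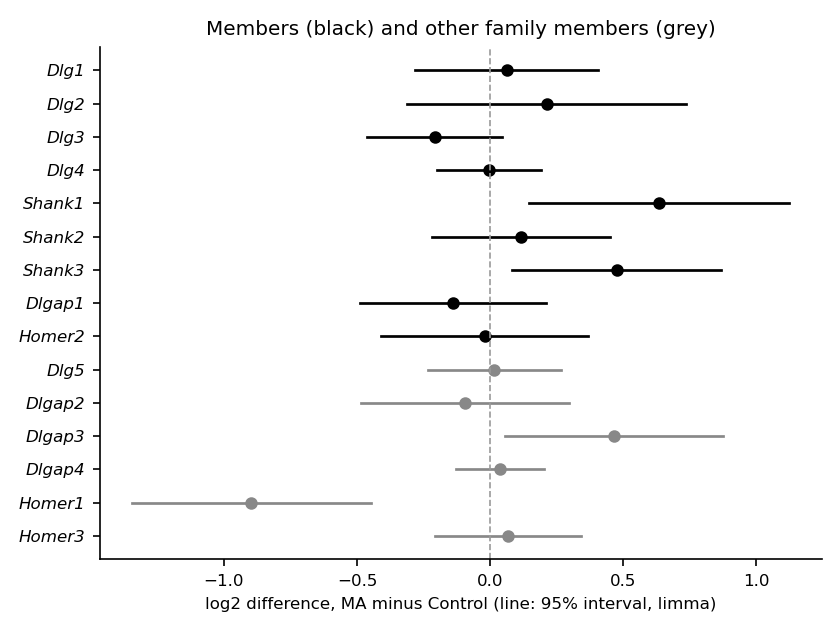
Log2 difference between the groups, MA minus Control (horizontal axis, line: 95% interval from limma), for the 9 members in black and the other Dlg, Dlgap and Homer genes in grey. The intervals of Shank1, Shank3, Dlgap3 and Homer1 do not include 0, at 0.63, 0.47, 0.47 and -0.90.

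The balance within each family was then compared, since a ratio within a library is not moved by a factor common to its genes. The step that gave all libraries nearly the same distribution of values need not be such a factor. Its part in the shares was not tested. Each gene was expressed as a percent of the summed linear level of its family, and the 9 member shares were compared by an exact two-sided permutation test, in which 0.1 is the smallest p-value possible. Of the 9 shares, 4 were separated between the groups in all libraries, each with an exact permutation p-value of 0.1 (0.225 after Benjamini-Hochberg adjustment over the 9), and none could reach 0.05 in this design. Among the levels of all tested genes, 17.5% were separated in this way. Shares within a family sum to 100%, so a higher share of one gene goes with a lower share of others and the 4 are not independent.

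Shank1 made up 42.4%, 46.3% and 46.4% of the Shank total in Control replicates 1 to 3 and 52.3%, 49.7% and 48.04% in MA replicates 1 to 3, a mean of 45.04% ± 2.30 against 50.04% ± 2.17 (SD over 3 libraries). Shank2 made up 23.6%, 19.5% and 19.8% in control libraries and 15.3%, 16.1% and 16.9% in MA libraries, a mean of 20.95% ± 2.29 against 16.1% ± 0.782. Shank3 held 34.0% ± 0.157 in control libraries and 33.9% ± 1.39 in MA libraries. Shank1 thus stood higher and Shank2 lower in the Shank total of every MA library. In MA replicate 3 the log2 level of Shank1, 5.210, lay just above the highest control value, 5.207. In that library the genes spanning more than 400 kb, Shank2 among them, had a median deviation of -0.24 from their mean over all libraries. Genes with a GC content over 60%, Shank1 and Shank3 among them, had a median deviation of 0.14 there. The part of span and GC content in these shares was not tested. Leaving out any 1 library kept the difference between the group means at 3.67 to 5.99 percentage points for Shank1 and at -5.58 to -3.53 for Shank2.

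Dlgap1 made up 48.6%, 42.95% and 44.5% of the Dlgap total in Control replicates 1 to 3 and 40.04%, 40.5% and 35.3% in MA replicates 1 to 3. Every MA library lay below every control library, with a mean difference of -6.76 points. The share of Dlgap3 was the counterpart, at 26.8% ± 3.85 in control libraries and 34.6% ± 1.27 in MA libraries. Dlgap3, known for the compulsive grooming of mice that lack it, had log2 values of 5.68, 6.13 and 6.22 in control libraries and 6.59, 6.65 and 6.19 in MA libraries, a difference of 0.47 (standard error 0.18, limma adjusted p = 0.423).

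Homer2 made up 8.88%, 9.79% and 9.45% of the Homer total in Control replicates 1 to 3 and 12.5%, 11.9% and 10.1% in MA replicates 1 to 3, higher in each MA library by a mean of 2.11 points, while the log2 level of Homer2 differed by -0.02. The Homer total was 82.7, 66.1 and 74.4 on the linear scale in Control replicates 1 to 3 and 62.6, 67.8 and 49.6 in the MA ones. The share of Homer1 was 46.2% ± 0.882 in control libraries and 30.3% ± 4.18 in MA libraries. Homer1 gives rise to long scaffold forms and to the short, activity-induced Homer1a, which the gene-level values do not separate. Homer1 had log2 values of 5.30, 4.95 and 5.17 in Control replicates 1 to 3 and 4.503, 4.416 and 3.81 in MA replicates 1 to 3. All MA libraries lay below all control libraries, with a difference of -0.90 (standard error 0.19, limma adjusted p = 0.183), and without MA replicate 3 it was -0.68 and passed the adjusted threshold (adjusted p = 0.0423), where 1.93% of all tested genes did. Leaving out any other library gave limma adjusted p-values of 0.208 to 0.632, and the replicate block gave 0.330. Homer3 took the remaining share, 44.4% ± 0.707 against 58.2% ± 5.34, with an uncertain level because exons of Ddx49 on the other strand cover 25.4% of its exonic length.

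The promoter window of Homer1 is shown beside these shares because it was the only gene of the 4 families that lay lower in every MA library. The 250 bases before its first start (build GRCm38.p6, chr13:93303507-93303756, plus strand) hold 3 matches, in capitals, to the core letters of the cAMP response element, spelled TGACG and searched on both strands,
Homer1: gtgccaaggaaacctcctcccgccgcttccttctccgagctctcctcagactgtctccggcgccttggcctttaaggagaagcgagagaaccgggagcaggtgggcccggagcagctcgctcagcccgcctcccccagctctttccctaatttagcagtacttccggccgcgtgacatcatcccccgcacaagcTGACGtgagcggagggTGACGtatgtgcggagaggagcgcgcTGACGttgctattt
The matches begin 56, 40 and 14 bases before the start. At least 1 such match was present in 17.8% of all windows, and among the members 1 window each of Dlg3 and Dlg4 held 1. The full element TGACGTCA, which contains these letters, was present in 1.55% of all windows, in none of the 17 windows of the 7 members that had any, and not in that of Homer1.

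In the Dlg family the shares were nearly even between the groups. Dlg4 held 74.1% ± 0.822 of the Dlg total in control and 74.4% ± 0.575 in MA libraries (SD, n = 3 each, exact permutation p = 0.6). Dlg3 held 14.6% ± 0.722 and 12.9% ± 2.61, and Dlg2 held 6.55% ± 0.814 and 7.81% ± 1.86 (exact permutation p = 0.4 for both). Within the MA group, Dlg3 was at 10.97% and 11.8% and Dlg2 at 9.04% and 8.72% in replicates 1 and 2, while replicate 3 had 15.8% and 5.67%, on the other side of the controls in both genes. Dlg1 held 4.67% ± 0.755 and 4.90% ± 0.555.

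**Figure D3:**
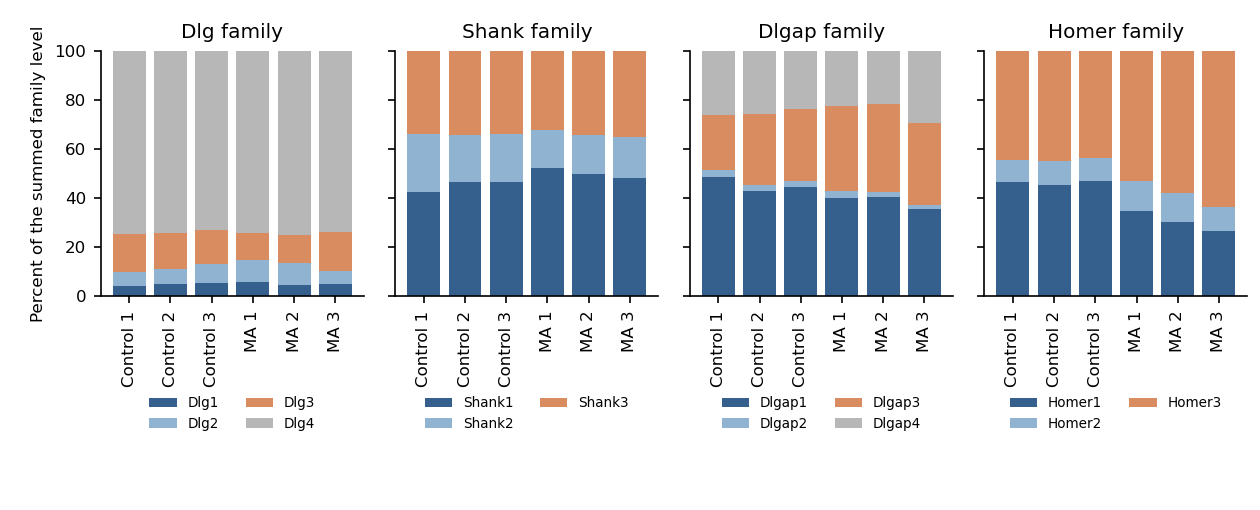
Percent of the summed linear level of each family (vertical axis, from 0 to 100) held by each gene in each of the 6 libraries, one stacked bar per library. Shank1 holds 42.4 to 46.4% in the control bars and 48.04 to 52.3% in the MA bars, and Homer1 holds 45.2 to 46.9% and 26.3 to 34.6%, while Dlg4 takes most of every Dlg bar.

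The members also deviated together from library to library. After each gene was centred on its group mean, Pearson's r between pairs of members over the 6 libraries ranged from -0.84 to 0.99, with a median of 0.77, and 28 of 36 pairs were positive. All 8 negative pairs contained Dlg3. Shank1 and Shank3 had an r of 0.97, and Dlgap1 and Homer2 an r of 0.99. These pairs share the same 6 libraries and their scaling, and the values are a description only. They rested largely on MA replicate 3, without which the median r was 0.32 and 24 of 36 pairs were positive. In MA replicate 3, 8 of 9 members lay below their own mean over the 6 libraries, with Dlg3 the exception, whereas in MA replicates 1 and 2 only Dlg3 lay below it.

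Gene span and GC content were set beside these deviations. In MA replicate 3, genes that span more than 400 kb had a median deviation of -0.24 (316 genes), while in MA replicates 1 and 2 it was 0.11 and 0.13. The members above this span are Dlg2, Dlgap1 and Shank2, whose deviations in MA replicate 3 were -0.43, -0.43 and -0.24. Shank1 and Shank3 differ from the other members in the GC content of their longest transcript, 61.4% and 62.4%, against 43.8% to 55.0% for the other 7. Outside the members, GC content was 63.9% for Dlgap3 and 60.2% for Homer3 (differences 0.47 and 0.07), and 36.9% for Homer1 (difference -0.90). The 658 tested genes with a GC content over 60% had median deviations of -0.02, -0.05 and 0.14 in MA replicates 1, 2 and 3. In these libraries Shank1 deviated by 0.49, 0.57 and -0.11 and Shank3 by 0.29, 0.51 and -0.08. The median log2 difference between the groups was 0.06 for the 658 genes and -0.05 for the 3851 genes with a GC content under 46%. The members Dlg1, Dlg2 and Homer2, also under 46%, differed by 0.06, 0.21 and -0.02. When each library was corrected for GC content, exonic length and span before the test, an alternative chosen after the data were seen, the differences were 0.57 for Shank1, 0.41 for Shank3 and 0.23 for Dlg2 (limma adjusted p = 0.393, 0.449 and 0.478). The part of span in the deviations of Dlg2, Dlgap1 and Shank2 was not tested further. Nor was the part of GC content in the deviations of Shank1 and Shank3. The part of span and GC content in the family shares was also not tested.

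**Figure D4:**
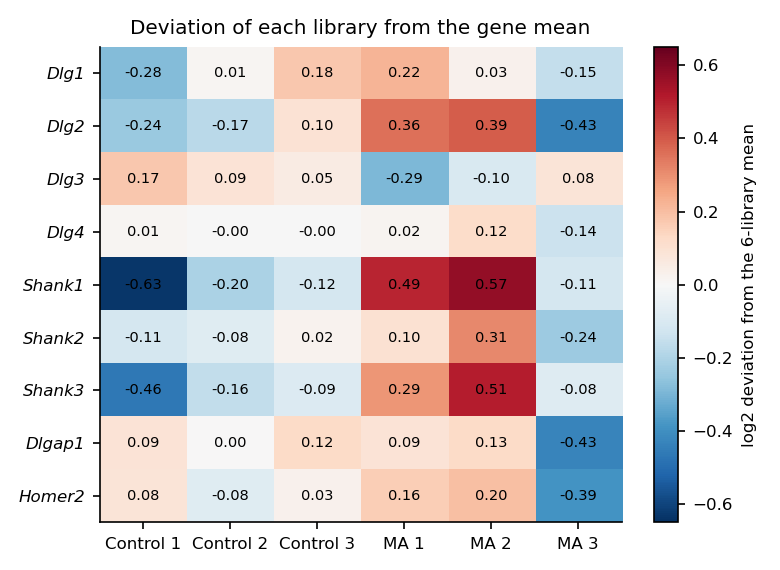
Log2 deviation of each library (columns) from the mean of each scaffold gene over the 6 libraries (rows), in red above and blue below 0, with the value in each cell. MA replicates 1 and 2 are above the mean in every member but Dlg3, and MA replicate 3 is below it in every member but Dlg3.

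**Figure D5:**
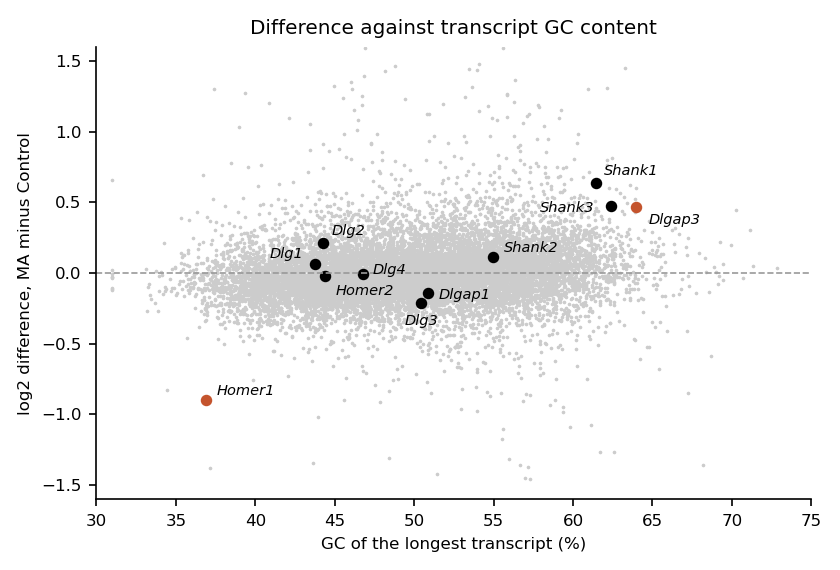
Log2 difference, MA minus Control (vertical axis), against the GC content of the longest annotated transcript in percent (horizontal axis) for 13302 tested genes in grey, of which 20 lie outside the axes, with the 9 members in black and Dlgap3 and Homer1 in orange. Shank1 and Shank3 lie at 61.4% and 62.4% GC and at 0.63 and 0.47, the highest differences of the 9 members.

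Other proteins of the density were compared through lists written from general knowledge. Of 18 other scaffolds, all tested, 0 passed the adjusted threshold in limma. At an unadjusted p-value under 0.05 there were 1 higher, Dlgap3, and 1 lower, Homer1, where 10.4% of all tested genes passed. The median log2 difference of the 18 was -0.01. The groups did not overlap in Homer1 and in Pick1, where 17.5% of all tested genes did not overlap. Pick1, the PDZ protein that binds the AMPA receptor subunit GluA2, was 0.17 higher (adjusted p = 0.580). Its level is uncertain, because exons of the annotated gene Gm49486 on the same strand cover 18.6% of its exonic length. Differences in Dlg5, Dlgap2 and Dlgap4 were 0.02, -0.09 and 0.04. Those of the Magi scaffolds were -0.02 for Magi1, -0.02 for Magi2 and -0.04 for Magi3. Tanc1 and Tanc2 stood at -0.20 and 0.08, Grip1 and Grip2, which anchor AMPA receptors, at 0.00 and 0.19, and Homer3 at 0.07. Lrrc7, which codes for densin, stood at -0.04, Mpp2 at -0.13, Cask at 0.07 and Gphn, the gephyrin scaffold of inhibitory synapses, at -0.05.

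Of 24 genes whose proteins bind the Dlg proteins or Dlgap or belong to complexes with them, 0 passed the adjusted threshold in limma. At the unadjusted threshold 2 passed, both lower, where 10.4% of all tested genes passed. Dynll1, a dynein light chain that binds Dlgap, was 0.41 lower on the log2 scale at 8.98 ± 0.20 in control and 8.57 ± 0.21 in MA libraries (SD, n = 3 each, limma adjusted p = 0.373). Grin2a, an NMDA receptor subunit held by PSD-95, had log2 values of 4.49, 4.202 and 4.18 in control libraries and 3.83, 4.13 and 3.85 in MA libraries, all below the controls (difference -0.35, adjusted p = 0.408). On the higher side, Nos1, neuronal nitric oxide synthase, which binds PSD-95, was at 0.24 (limma adjusted p = 0.651). The median of the list was -0.01, with 12 genes higher and 12 lower. Without MA replicate 3, 8 of the 24 passed the unadjusted threshold, where 23.3% of all tested genes did.

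Among 15 genes whose proteins bind Shank or Homer, 0 passed either threshold in limma, and the median was 0.02. Agap2, which codes for PIKE and binds Homer, was 0.20 higher (adjusted p = 0.478), and Sharpin, which binds the ankyrin repeats of Shank, was 0.09 higher (adjusted p = 0.837). Baiap2, an actin regulator also called IRSp53, was at -0.24 (adjusted p = 0.499) and Arhgef7, a Rac exchange factor also called beta-PIX, at -0.11 (adjusted p = 0.680). All libraries of one group lay on one side of the other for Agap2, Baiap2 and Arhgef7, or 3 of 15, where 17.5% of all tested genes did not overlap. Without MA replicate 3, 6 of the 15 passed the unadjusted threshold, where 23.3% of all tested genes did.

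Of 14 enzymes that act on these scaffolds or their binders, 13 were tested and Zdhhc7 was not analysed here. The count past the adjusted threshold in limma was 0, and 1 passed the unadjusted one, where 10.4% of all tested genes did. Of the 13, 11 were lower and 2 higher, with a median of -0.10, where 7025 of the 13321 tested genes were lower. Plk2, a kinase that marks the Dlg partner SPAR for breakdown, was at -0.27 (adjusted p = 0.471), and Zdhhc2, which palmitoylates PSD-95 near synapses, was at -0.37 (adjusted p = 0.558). Cdk5, a kinase that phosphorylates PSD-95, was at 0.20 (adjusted p = 0.600), and Mapk8 at 0.09 (adjusted p = 0.908).

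Markers of neurons and glia were set beside these values. Of the 8 pyramidal and granule neuron markers, 7 were lower in MA, with a median of -0.20 and 0 past the adjusted threshold, and Neurod6 was called at an unadjusted p-value under 0.05. Of the 8 interneuron markers, 7 were lower with a median of -0.10, and Sst was the most abundant. No interneuron marker (0 of 8) passed either threshold in limma. The medians were -0.10 for astrocyte markers, led by Aldoc, -0.04 for oligodendrocyte markers, led by Mbp, -0.02 for microglia markers, led by C1qa, and 0.14 for endothelial and mural markers, led by Vtn, with 0 of 8 past the adjusted threshold in each list, while Aqp4, lower, Pdgfra, higher, no microglia marker, and Cldn5 and Slco1a4, both higher, passed the unadjusted one. These 4 and Neurod6 were picked out after their values were seen. Of all tested genes, 10.4% passed the unadjusted threshold and 0.263% the adjusted one. The scaffold genes are made mostly by neurons, and no marker of these 6 lists was at 0 in any library. The part of cell composition in the values of the members was not tested.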

How the data were processed

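Hippocampal RNA of 6 mice was sequenced on an Illumina platform. Per the methods of the study, reads were aligned by the authors with Hisat2 2.0.5, who then counted reads per gene with featureCounts 1.5.0-p3 and converted them to FPKM, whereas the submitters' processing notes name Bowtie 0.12.2 and the builds mm8 and mm9. The build of the counted table is not given in the sources used here. The deposited values are on a log scale, read as log2 of the value plus 1, and share nearly 1 distribution, steps that the authors do not describe.

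The log2 values were tested with limma 3.58.1 in R 4.3.3 (lmFit, eBayes with trend) without covariates, over the 13321 genes that reached 0.5 on the linear scale (2 to the power of the value, minus 1) in 3 or more libraries, with Benjamini-Hochberg adjustment. Exact tests used scipy 1.17.1. On 10 simulated tables of 13321 genes, a median of 76% of 200 genes changed by 1 on the log2 scale was recovered. Members and lists were chosen with earlier results of these data known. Named genes were all members and other scaffolds, and in each partner list any gene past the adjusted threshold and otherwise the 2 higher and 2 lower with the smallest p. A further 5 genes with the profile most like the members' mean, and the most abundant and the genes past the adjusted threshold of each marker list, were also named. A gene that this rule names is not reported here. Coordinates are those of GENCODE M21 (GRCm38), for location only. Fold changes of low genes are understated by the offset. Alternatives were other offsets, filters and centring, quantile normalization, sample quality weights, the replicate block, each library left out and, added after the data were seen, a correction for GC content, length and span.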

Additional observations from a re-analysis of the deposited data

How the results depend on the processing

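No member passed the adjusted threshold in limma except under sample quality weights, which called Shank1 and Shank3, and the 6 fits that each left out 1 library called 0 of 9. At an unadjusted p-value the count of members, 2, became 5 with these weights, 1 after the correction for GC content, length and span (with or without the replicate block), and 0 to 5 with a library left out, when their median log2 difference was -0.01 to 0.17. The share of all tested genes passing moved too, from 10.4% to 26.3% with weights, 11.2% after the correction, 7% with the block as well, and 6.22% to 23.3% with a library left out. With the weights, 1 gene passed the adjusted threshold among the other scaffolds, the Dlg partners and the Shank and Homer partners, and 10, 4 and 2 passed the unadjusted one among the Dlg partners, the Shank and Homer partners and the enzymes. The median of the other scaffolds was 0.051 with weights. Among Shank and Homer partners 1 gene passed the unadjusted threshold without a filter and 1 after the correction. Counts of other scaffolds fell to 1 after the correction with and without the block. The enzymes had 0 without the eBayes trend. With a library left out, the adjusted count of other scaffolds was 0 to 1 and those of the other 3 lists 0. The unadjusted counts were 1 to 2 for other scaffolds, 0 to 8 for Dlg partners, 0 to 6 for Shank and Homer partners and 0 to 3 for enzymes, and the medians -0.036 to 0.061, -0.064 to 0.090, -0.085 to 0.030 and -0.14 to -0.07. The cause of these shifts was not tested.

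Whether the replicate numbers mark pairs is not stated in the labels. The deviations of same-numbered libraries correlated at -0.20, -0.24 and -0.34, and with 3 libraries a group these values cannot settle it. With the replicate block, Dlg partners and enzymes had 0 genes past the unadjusted threshold, alone or with the correction. The members kept 2 with the block alone, while with the correction as well only Shank1 passed. The share differences were the same under the block, and their sign-flip test over 3 pairs cannot reach 0.05.

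Signs turned for small differences. With sample quality weights, Dlg4 was 0.076, Dlgap1 0.029, Homer2 0.16, Dlg5 -0.046, Dlgap2 0.0090, Magi1 0.037, Magi2 0.11 and Magi3 0.094. After the correction, with or without the block, Dlg4 was 0.020, Homer2 0.016, Dlg5 -0.027, Dlgap4 -0.022 and Grip1 -0.0025. Grip1 was -0.00037 with median centring and -0.0021 with quantile normalization. With a library left out, differences that changed sign ranged from -0.064 to 0.17 for Dlg1, -0.065 to 0.065 for Dlg4, -0.011 to 0.26 for Shank2, -0.24 to 0.039 for Dlgap1, -0.13 to 0.17 for Homer2, -0.052 to 0.077 for Dlg5, -0.25 to 0.082 for Dlgap2, -0.026 to 0.15 for Homer3, -0.098 to 0.046 for Magi1, -0.097 to 0.081 for Magi2, -0.12 to 0.076 for Magi3, -0.11 to 0.026 for Lrrc7, -0.027 to 0.19 for Tanc2, -0.064 to 0.041 for Grip1 and -0.015 to 0.12 for Cask. Shares with a library left out differed by -0.18 to 0.56 points for Dlg1, -0.18 to 0.61 for Dlg4 and -0.75 to 0.62 for Shank3, which changed sign, and kept it for the other 6. The median r between members was 0.32 to 0.93. The values rest on 3 mice a group, and the unknown depth allows no counting interval.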

Other observations

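The summed level of Shank1 to Shank3, as a percent of the summed level of Dlg1 to Dlg4, was 15.2%, 18.96% and 19.9% in Control replicates 1, 2 and 3 and 27.2%, 28.4% and 21.4% in MA replicates 1, 2 and 3. Every MA library was above every control library. The quantity was chosen after the values were seen and was not tested. On the linear scale, the Dlg total averaged 386 ± 3.14 (control) and 385 ± 31.7 (MA), and the Shank total 69.7 ± 9.78 (control) and 99.5 ± 22.04 (MA; SD over 3 libraries).

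Over the 6 libraries, the tested genes outside the members whose log2 profile was most like the mean centred profile of the 9 members were Tuba1a, Tbc1d12, Amotl1, Araf and Cyp1b1, with Pearson's r of 0.998, 0.997, 0.996, 0.995 and 0.993. All 5 were low in MA replicate 3 and high in MA replicates 1 and 2, as was the mean of the members, although Dlg3 was not. They were chosen for this likeness over the same 6 libraries. For Araf, a kinase of the Raf family, the log2 values were 6.86, 6.93 and 7.09 in the control libraries and 7.29, 7.34 and 6.79 in the MA libraries. For Tuba1a, an alpha-tubulin of neurons, they were 9.11, 9.14 and 9.18 and then 9.24, 9.27 and 9.09.

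Among the promoter windows of the members, E-boxes spelled CACGTG, the letters that clock and Myc-like factors bind, were present in 3 of 17 windows, those of Dlg1 and Dlgap1, against 6.02% of all windows. Neither spelling of the AP-1 site, TGACTCA or TGAGTCA, was found in any of the 17, against 4.46% of all windows. Homer2 has a window with a GC content of 83.2%, close to that of Shank3.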
